A study of Homo sapiens with 4 samples.

Results

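Nuclear receptors are transcription factors, many of which are switched by small lipophilic ligands such as bile acids, fatty acids, oxysterols, retinoids, thyroid hormone and steroids. Most share a zinc-finger DNA-binding domain and a ligand-binding domain, and many of the lipid sensors bind DNA as heterodimers with a retinoid X receptor. In hepatocytes they tie bile acid, lipid, glucose and drug metabolism to the supply of their ligands, and the PGC-1 coactivators PPARGC1A and PPARGC1B dock on several of them to raise genes of oxidative metabolism. The 35 genes described here are 33 receptor genes of this family and the 2 PGC-1 genes, chosen by symbol from a list. That list and the lists of partners and targets were made with earlier results of these data known. Shares set beside all genes are therefore description only. All 35 were found among the 26603 genes of the deposited table.

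The data are RNA sequencing of PLC8024, a line of human liver cancer cells, in 2 control libraries and 2 drug libraries. The labels give no drug name, dose, time or culture, and all 4 libraries come from this 1 line, so p-values measure the spread between these samples, which may be technical. Levels are fragments per kilobase of exon, scaled to library depth (FPKM), given as mean ± SD with n = 2 libraries per group. Gene reads recovered from the file totalled 28526098 to 40279560 per library. As a check of the tissue label, 6 of 9 hepatocyte markers had at least 1 FPKM in a library, and the markers under 1 FPKM in every library were APOB, TTR and AFP. The 4 fibroblast markers were all under 1 FPKM. The summed hepatocyte marker level was 700 and 693 FPKM in control against 426 and 404 FPKM in drug libraries, most of it FGB, the fibrinogen beta chain gene. With limma FGB, ALB, APOA1 and TF were lower under drug, ALB at only 3.19 ± 0.0593 and 1.31 ± 0.00616 FPKM. HNF4A was higher and SERPINA1 did not pass (limma adjusted p = 0.0210 and 0.918). The endothelial markers VWF and CDH5 were under 1 FPKM in every library, while PECAM1 fell from 4.38 ± 0.395 to 2.16 ± 0.0963 FPKM (limma adjusted p = 0.00669) and made most of the endothelial sums of 4.69 and 4.16 against 2.11 and 2.23 FPKM. Biliary markers summed to between 3.23 and 3.68 FPKM, fibroblast markers to at most 0.433 FPKM, and CD14, the leukocyte marker analysed, was at most at 0.170 FPKM. The part of these shifts in the receptor values was not tested.

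With drug, the bile acid receptor gene NR1H4, the orphan receptor genes NR4A1 and NR4A2 and the fatty acid receptor gene PPARA were lower. The glucocorticoid receptor gene NR3C1, the orphan receptor gene NR5A2 and the estrogen-related receptor gene ESRRA were higher. Among these 7 genes the widest fall in mean FPKM was the 59.7% of NR1H4, and the widest rise was the 33.5% of NR3C1. RXRA, the common heterodimer partner, and both PGC-1 genes did not pass with limma. PPARGC1A was called lower with edgeR and DESeq2 on recovered reads (adjusted p = 0.0263 and 0.0104). Of the 35 genes, 26 averaged 1 FPKM or more in a group and were tested with limma on log2(FPKM + 1), and all 26 reached that level in both groups. At a Benjamini-Hochberg adjusted p under 0.05 over all genes, 3 were higher (11.5%, against a background of 7.78% of the 11227 genes tested) and 4 lower (15.4%, against 6.02%). No called gene changed by more than 2-fold on the log2(FPKM + 1) scale, which understates the change of low genes. The median log2 fold change was 0.0068 for the 26 genes and 0.0364 for all genes tested, and the median absolute value was 0.15 against 0.098. The sign of the members' median turned with the scaling, at -0.0153 beside 0.0114 for all genes with TMM-scaled FPKM and -0.0309 beside 0.0018 with edgeR on recovered reads. In bulk RNA, fewer cells that express a gene and less of its RNA per cell cannot be told apart.

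Stretches upstream of RefSeq starts of called genes are shown where they matched AGGTCA, which many nuclear receptors bind, or TGACG, which cAMP-responsive factors bind. Of each gene a window with the most matches was taken, so the windows were picked for their matches. The NR3C1 window is 1 of 7 for that gene, and NR4A1, ESRRA and PPARA had windows without a match. The stretches are the 250 bases before a RefSeq start (GRCh38.p14), 5′ to 3′ on the gene's strand, with matches on either strand in capitals. The NR1H4 window lies at chr12:100503110-100503359 (plus strand), with AGGTCA read on the other strand. The NR5A2 window lies at chr1:200027460-200027709 (plus strand), with AGGTCA. The NR3C1 window lies at chr5:143434810-143435059 (minus strand), with TGACG read on the other strand. By the gene spans of GENCODE 29, the NR1H4 and NR3C1 windows lie inside the gene, before an internal start. The NR5A2 window crosses the gene start at 200027602, and its match lies past that start.
NR1H4: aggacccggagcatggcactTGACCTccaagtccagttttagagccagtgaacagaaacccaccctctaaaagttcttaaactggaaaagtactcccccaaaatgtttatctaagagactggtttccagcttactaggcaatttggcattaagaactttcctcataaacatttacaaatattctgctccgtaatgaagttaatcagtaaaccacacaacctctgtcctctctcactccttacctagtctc
NR5A2: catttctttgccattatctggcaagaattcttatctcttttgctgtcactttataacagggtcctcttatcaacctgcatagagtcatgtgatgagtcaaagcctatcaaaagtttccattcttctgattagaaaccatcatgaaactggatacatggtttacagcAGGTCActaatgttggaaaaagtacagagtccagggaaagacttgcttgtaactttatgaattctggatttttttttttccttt
NR3C1: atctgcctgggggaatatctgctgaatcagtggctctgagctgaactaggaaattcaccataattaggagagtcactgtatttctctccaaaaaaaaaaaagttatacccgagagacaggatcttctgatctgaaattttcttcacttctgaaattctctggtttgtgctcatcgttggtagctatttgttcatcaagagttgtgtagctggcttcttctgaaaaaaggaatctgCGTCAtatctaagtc
Such windows were found for 30 of the 35 genes (67 windows, since a gene can have several starts). AGGTCA was present in 11.9% of these 67 windows and in 12.1% of all 35116 windows of the same length. TGACG was present in 16.4% against 21.2%, and the full palindrome TGACGTCA, which contains TGACG on both strands, in 1.49% against 1.65%. Of the 6 called genes with windows, AGGTCA was found for NR1H4 and NR5A2, and TGACG for NR3C1 and a second NR5A2 window. Matches of these letters describe the windows and were not tested as binding sites.

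The genes spanned a wide range of levels in control cells. NR4A2 was the highest (38.5 ± 0.342 FPKM), followed by NR2F2 (23.3 ± 1.09), NR3C1 (18.1 ± 0.619), NR2F6 (17.3 ± 1.34), NR4A1 (14.1 ± 0.768) and PPARD (12.0 ± 0.0643). Those 6 were the genes with at least 10 FPKM. NR2F2 and NR2F6 encode COUP-TF family receptors, which often act as repressors. NR3C1 and NR2F6 were neighbours in that order whose control libraries overlapped, at 17.7 and 18.6 FPKM for NR3C1 and 16.3 and 18.2 FPKM for NR2F6. The other 20 tested genes lay between 9.64 (NR5A2) and 1.25 FPKM (PPARGC1B). For 24 genes the length implied by reads and FPKM was within 1% of the merged exon length in GENCODE 29. It was 2.64 times that length for PPARG, 2.55 times for RARB and 1.42 times for NR1H2, so with GENCODE 29 lengths the control mean of PPARG would be 8.01 in place of 3.03 FPKM, that of RARB 5.64 in place of 2.21 and that of NR1H2 8.74 in place of 6.14. The order of levels therefore depends on the annotation for these genes, and how their counts would differ on GENCODE 29 was not tested.

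**Figure D1:**
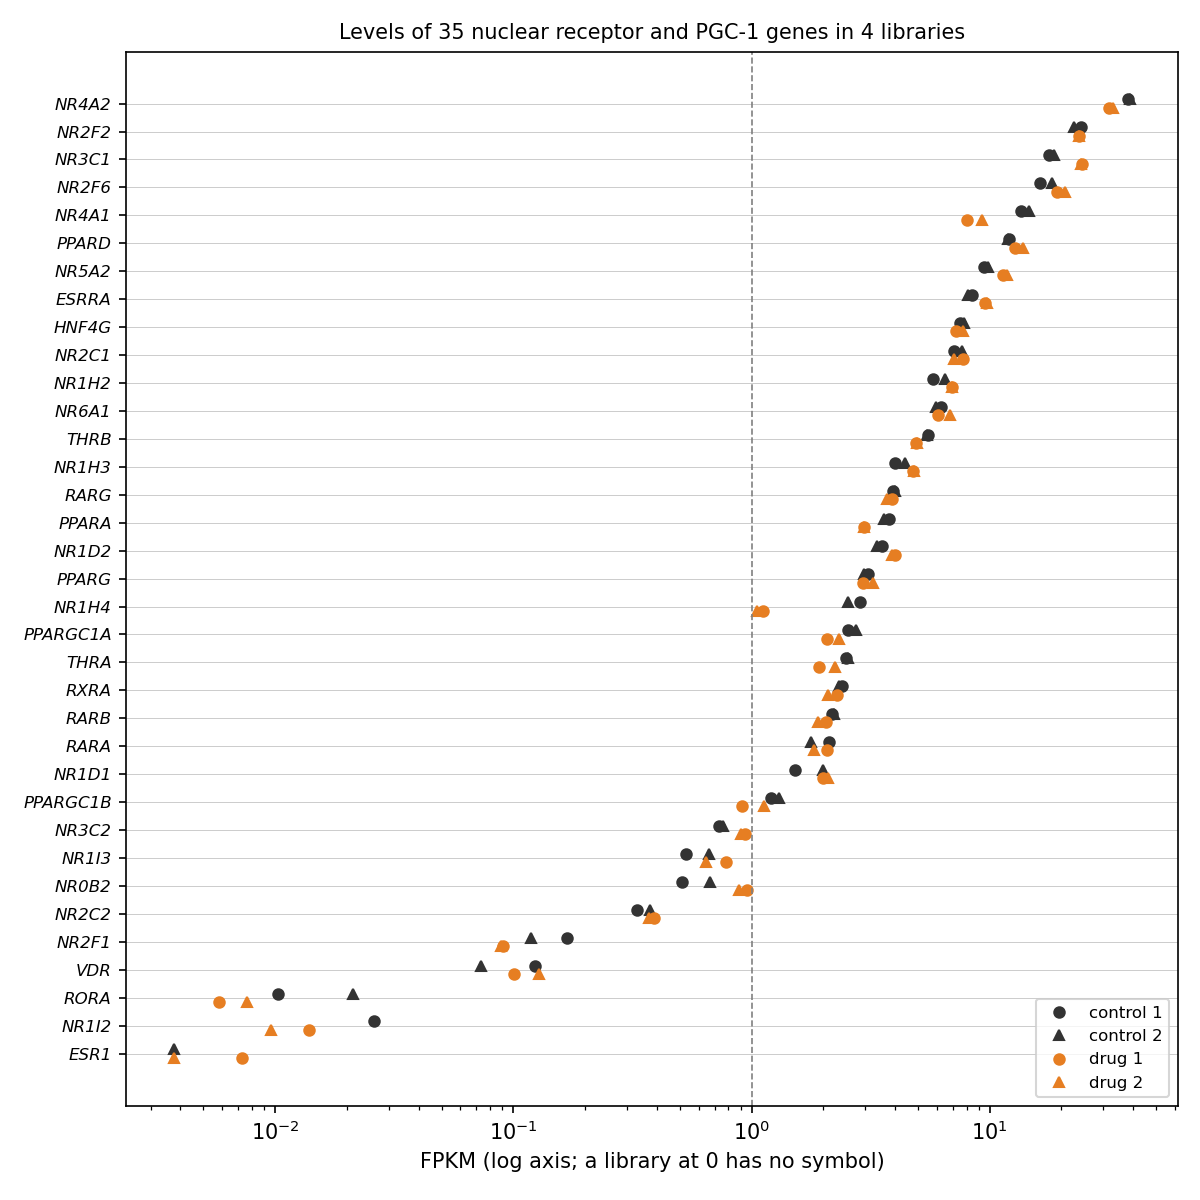
Level of each of the 35 genes in the 4 libraries, in FPKM on a log axis, ordered by control mean. Circles are replicate 1 and triangles replicate 2 of control (dark) and drug (orange), and the dashed line marks 1 FPKM. The 26 tested genes stand above the 9 that were not tested, and the drug symbols of NR1H4 and NR4A1 lie well to the left of the control symbols.

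Among lipid and bile acid sensors, 2 of 6 tested genes fell (background 6.02% lower) and 4 did not pass. NR1H4 (ENSG00000012504, chromosome 12 at 100473708 to 100564413 in GRCh38) encodes FXR, which senses bile acids and restrains their synthesis. Its level was 2.86 and 2.53 FPKM in the control libraries and 1.12 and 1.05 FPKM in the drug libraries. Both drug libraries lay far below both controls, with no overlap. The gene fell to 1.09 ± 0.0479 from 2.70 ± 0.230 FPKM, a log2 fold change of -0.82 (SE 0.08, limma adjusted p = 0.00734), which on recovered reads was a log2 fold change of -1.35 (edgeR adjusted p = 0.00039). In the authors' deposited table it is the single listed gene of the 35 marked as down. The call was lost without control 1, where the limma adjusted p was 0.0501.

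NR0B2 encodes SHP, a receptor without a DNA-binding domain that FXR induces and that represses bile acid synthesis genes. It was under the filter, at 0.512 and 0.667 FPKM without drug and 0.959 and 0.887 FPKM with it, on 17, 30, 45 and 40 reads in that order. Both drug libraries lay above both controls. Its adjusted p in the authors' deposited table is 0.818.

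PPARA (ENSG00000186951, chromosome 22 at 46150521 to 46243756) encodes the fatty acid receptor that drives fatty acid oxidation genes in liver. It stood at 3.78 and 3.59 FPKM in controls against 2.97 and 2.98 FPKM under drug, so the groups did not overlap. The gene fell to 2.97 ± 0.00219 from 3.69 ± 0.131 FPKM, a log2 fold change of -0.24 (SE 0.05, limma adjusted p = 0.0482, edgeR adjusted p = 0.00152). Its limma call was lost whichever library was left out (adjusted p = 0.188 and 0.120 without control 1 or control 2, 0.137 and 0.155 without drug 1 or drug 2) and without the filter (0.147). PPARD, the broadly expressed family member, was at 12.0 ± 0.0643 and 13.3 ± 0.776 FPKM, and PPARG, which is best known from fat cells, was at 3.03 ± 0.0918 and 3.09 ± 0.200 FPKM (limma adjusted p = 0.125 and 0.843). PPARA thus made up 20% and 19.4% of the summed PPAR FPKM in controls against 15.9% and 14.9% under drug, with the deposited lengths.

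NR1H2 and NR1H3 encode LXR beta and LXR alpha, the oxysterol receptors of cholesterol export and lipid synthesis genes. NR1H2 was at 6.14 ± 0.506 and 6.93 ± 0.0237 FPKM and NR1H3 at 4.21 ± 0.309 and 4.77 ± 0.0293 FPKM (limma adjusted p = 0.149 and 0.152). The share of NR1H2 in their sum lay between 59.1% and 59.5% in the 4 libraries, with the deposited lengths. NR1H3 overlaps ACP2 on the other strand, and the use of strand in counting is not given in the sources used. The xenobiotic receptor genes were both under the filter. NR1I3, which encodes CAR, was at 0.529 and 0.662 FPKM (control) and 0.780 and 0.645 FPKM (drug). NR1I2, which encodes PXR, had 4, 0, 3 and 2 reads, and the 0 in control 2 allows up to 0.0144 FPKM (3 reads, counting error only).

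Of the vitamin and hormone receptor genes, none of 6 tested passed with limma. RXRA was at 2.39 and 2.32 FPKM without drug and 2.27 and 2.10 FPKM with it. Both drug libraries lay just below both controls (limma adjusted p = 0.469, edgeR adjusted p = 0.182). The retinoic acid receptor genes RARA (1.94 ± 0.235 to 1.95 ± 0.175 FPKM), RARB (2.21 ± 0.0286 to 1.97 ± 0.105) and RARG (3.97 ± 0.0441 to 3.78 ± 0.126) did not pass either (limma adjusted p = 0.962, 0.313 and 0.487). RARB overlaps TOP2B on the other strand.

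The thyroid hormone receptor genes were split between tests. THRB, the main form in liver, was at 5.52 and 5.46 FPKM in controls against 4.91 and 4.94 FPKM under drug, and THRA at 2.49 and 2.54 against 1.92 and 2.24 FPKM. In both genes each drug library was lower than each control. With limma the adjusted p was 0.101 for THRB and 0.160 for THRA, while edgeR on recovered reads called both lower (adjusted p = 0.00805 and 0.0432). In the authors' deposited table the adjusted p is 0.0272 for THRB and 0.084 for THRA. On the other strand, THRA shares exon bases with NR1D1 and THRB with THRB-AS1. VDR, the vitamin D receptor gene, was at 0.0983 ± 0.0357 and 0.114 ± 0.0190 FPKM, on 16 to 28 reads.

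NR3C1 was the highest steroid receptor gene and the only one tested. It encodes the glucocorticoid receptor, which waits in the cytoplasm on HSP90 chaperones and moves to the nucleus with cortisol. NR3C1 (ENSG00000113580, chromosome 5 at 143277931 to 143435512) was at 17.7 and 18.6 FPKM (control) and 24.3 and 24.1 FPKM (drug). The groups were well apart. It rose to 24.2 ± 0.187 from 18.1 ± 0.619 FPKM, a log2 fold change of 0.40 (SE 0.04, limma adjusted p = 0.00588, edgeR adjusted p = 0.000383). It alone among the 7 called genes kept its limma call with each library left out, with adjusted p between 0.0332 and 0.0366, and it also passed without the filter (0.0330). The mineralocorticoid receptor gene NR3C2 was under the filter at 0.727 and 0.757 FPKM without drug and 0.936 and 0.904 FPKM with it. NR3C1 held 96.1% to 96.4% of their summed FPKM. The estrogen receptor gene ESR1 had 0, 2, 4 and 2 reads, and the 0 in control 1 allows up to 0.00766 FPKM.

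Orphan receptors have no settled natural ligand or are controlled mainly by their amount. Of 9 such genes tested, 2 rose and 2 fell, where the background over all genes is 7.78% higher and 6.02% lower. NR4A1 and NR4A2 encode NUR77 and NURR1, immediate early receptors whose transcription follows growth factor, calcium and cAMP signals. NR4A1 (ENSG00000123358, chromosome 12 at 52022832 to 52059507) was at 13.5 and 14.6 FPKM in controls against 7.997 and 9.29 FPKM under drug, with no overlap. It fell to 8.64 ± 0.914 from 14.1 ± 0.768 FPKM, a log2 fold change of -0.645 (SE 0.08, limma adjusted p = 0.0110, edgeR adjusted p = 9.5e-05). The call was lost without control 1 (0.0536), without control 2 (0.0660) and without the filter (0.0639). NR4A1 overlaps AC025259.3 on the other strand.

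NR4A2 (ENSG00000153234, chromosome 2 at 156324432 to 156342348) was at 38.2 and 38.7 FPKM (control) and 31.6 and 32.9 FPKM (drug). The groups did not overlap, and the drug libraries were further apart than the controls. It fell to 32.2 ± 0.954 from 38.5 ± 0.342 FPKM, a log2 fold change of -0.25 (SE 0.03, limma adjusted p = 0.0135, edgeR adjusted p = 0.00109), and lost its call without control 1 (0.0680), control 2 (0.0724), drug 1 (0.0615) or the filter (0.0540). The paralogue NR4A3, which is not among the 35, fell from 2.20 ± 0.131 to 1.52 ± 0.0900 FPKM (limma adjusted p = 0.0457), a call lost whichever library was left out (0.108 to 0.167) and without the filter (0.159). NR4A1 gave 26.1% and 27.4% of the summed NR4A1 and NR4A2 FPKM in controls against 20.2% and 22.0% under drug. That sum was 51.7 and 53.3 FPKM in control and 39.6 and 42.2 FPKM with drug.

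NR5A2 encodes LRH-1, which drives bile acid and cholesterol handling genes in liver. NR5A2 (ENSG00000116833, chromosome 1 at 200027602 to 200177424) was at 9.47 and 9.81 FPKM without drug and 11.4 and 11.8 FPKM with it. Each drug library lay above each control. It rose to 11.6 ± 0.271 from 9.64 ± 0.237 FPKM, a log2 fold change of 0.24 (SE 0.04, limma adjusted p = 0.0215, edgeR adjusted p = 0.00219), and its limma call was lost whichever library was left out (0.101 and 0.0750 without control 1 or control 2, 0.0705 and 0.102 without drug 1 or drug 2) and without the filter (0.0744).

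ESRRA encodes ERR alpha, a constitutively active partner of PGC-1 at mitochondrial genes. ESRRA (ENSG00000173153, chromosome 11 at 64305572 to 64316743) was at 8.41 and 8.14 FPKM in controls against 9.53 and 9.77 FPKM under drug, again without overlap. It rose to 9.65 ± 0.171 from 8.28 ± 0.189 FPKM, a log2 fold change of 0.20 (SE 0.04, limma adjusted p = 0.0344). Of the 7 genes called with limma it was the 1 that edgeR did not call (adjusted p = 0.0782). Its limma adjusted p was 0.0997 to 0.141 with 1 library left out (0.105 and 0.128 without control 1 or control 2, 0.0997 and 0.141 without drug 1 or drug 2) and 0.0968 without the filter, and its adjusted p is 0.233 in the authors' deposited table. ESRRA shares exon bases with TRMT112 on the other strand.

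The other 5 orphan receptor genes tested did not pass. NR2F2 was at 24.1 and 22.6 FPKM (control) and 23.8 and 23.7 FPKM (drug), inside the control range (limma adjusted p = 0.710). NR2F6 was at 16.3 and 18.2 FPKM against 19.2 and 20.7 FPKM, apart but with a wide spread (0.106). HNF4G, a close relative of the hepatocyte factor HNF4A, was at 7.65 ± 0.162 and 7.46 ± 0.340 FPKM, NR2C1 at 7.36 ± 0.371 and 7.40 ± 0.419 FPKM and NR6A1, the germ cell nuclear factor gene, at 6.08 ± 0.222 and 6.42 ± 0.535 FPKM (limma adjusted p = 0.663, 0.954 and 0.521). NR2C2 and NR2F1 were under the filter, at 0.352 ± 0.0322 and 0.143 ± 0.0352 FPKM in control. NR2C2 was thus 4.43% to 4.95% of the NR2C sum in the 4 libraries.

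The clock receptor genes NR1D1 and NR1D2 encode REV-ERB alpha and beta, heme-binding repressors of the circadian loop. NR1D1 was at 1.52 and 2.00 FPKM without drug and 2.00 and 2.09 FPKM with it, and NR1D2 at 3.53 and 3.37 against 3.99 and 3.87 FPKM. In both genes the drug libraries lay above the controls, though drug 1 and control 2 differed by under 0.01 FPKM for NR1D1, and neither passed (limma adjusted p = 0.375 and 0.122). RORA, which encodes an activator at the same elements, had 5, 14, 4 and 5 reads.

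The coactivators PPARGC1A and PPARGC1B were low and did not pass with limma. PPARGC1A (ENSG00000109819, chromosome 4 at 23755041 to 23904089) encodes PGC-1 alpha, which fasting and cold induce. It was at 2.53 and 2.74 FPKM in controls against 2.06 and 2.33 FPKM under drug, and PPARGC1B at 1.20 and 1.30 against 0.913 and 1.12 FPKM. In both genes each drug library lay below each control, and drug 1 was the lowest. The log2 fold change of PPARGC1A was -0.19 ± 0.07 SE (limma adjusted p = 0.158), and edgeR on recovered reads called it lower (log2 fold change -0.31, adjusted p = 0.0263). DESeq2 on the same reads also called PPARGC1A lower (adjusted p = 0.0104), and its adjusted p in the authors' deposited table is 0.0201. For PPARGC1B the adjusted p was 0.322 with limma, 0.0617 with edgeR and 0.0514 with DESeq2. Their ratio held, with PPARGC1A at 67.5% to 69.3% of the sum in the 4 libraries.

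**Figure D2:**
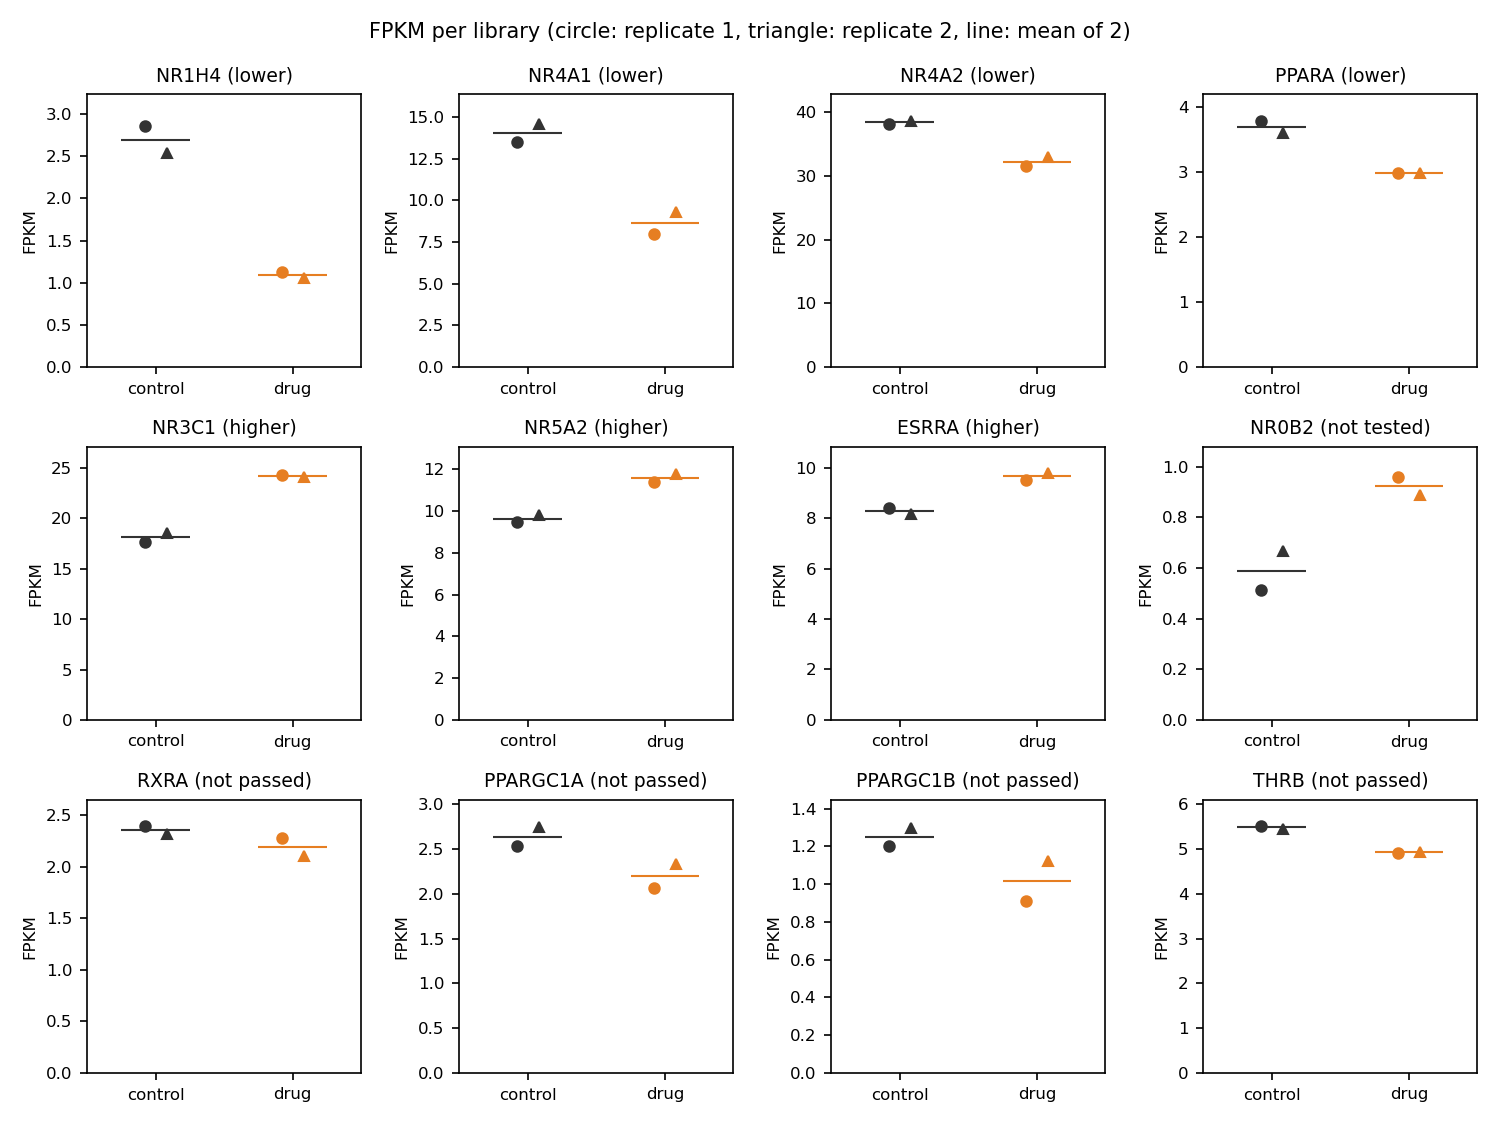
FPKM of 12 genes in each library, on linear axes that start at 0, with circles for replicate 1, triangles for replicate 2 and a line at the mean of 2 libraries. The word after each name is the limma call. Relative to the control mean, NR1H4 (59.7% lower) and NR4A1 (38.5% lower) show the widest gaps among the 7 genes that passed.

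Across the 26 tested genes, both drug libraries lay above both controls in 9 (34.6%, where the background is 40.3% of the 11227 genes) and below both in 11 (42.3%, background 23.3%), and 6 overlapped. With edgeR on recovered reads 2 genes were higher (7.69%, background 8.37%) and 7 lower (26.9%, background 11.0%), the additions being THRB, PPARGC1A and THRA. Of the 35 genes, DESeq2 1.42.0 on the same reads also called 2 higher and 7 lower. Its background is 7.60% higher and 8.91% lower of the 13709 genes it gave an adjusted p. Of the 35, NR2F1, VDR, RORA, NR1I2 and ESR1 got none, so the 2 counts rest on unlike sets. At the same threshold the authors' deposited table holds, of the 35, 2 higher and 6 lower, where all 26603 genes give 3.18% and 4.03%. That last background is unlike the 35, since only 11227 of the 26603 genes passed the filter while 9 of the 35 were under it. Among all genes the share of limma calls that were higher was 56.4%, against 43.1% with TMM-scaled FPKM and 43.3% with edgeR, while among the 26 genes the TMM-scaled fit gave the same 3 and 4.

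**Figure D3:**
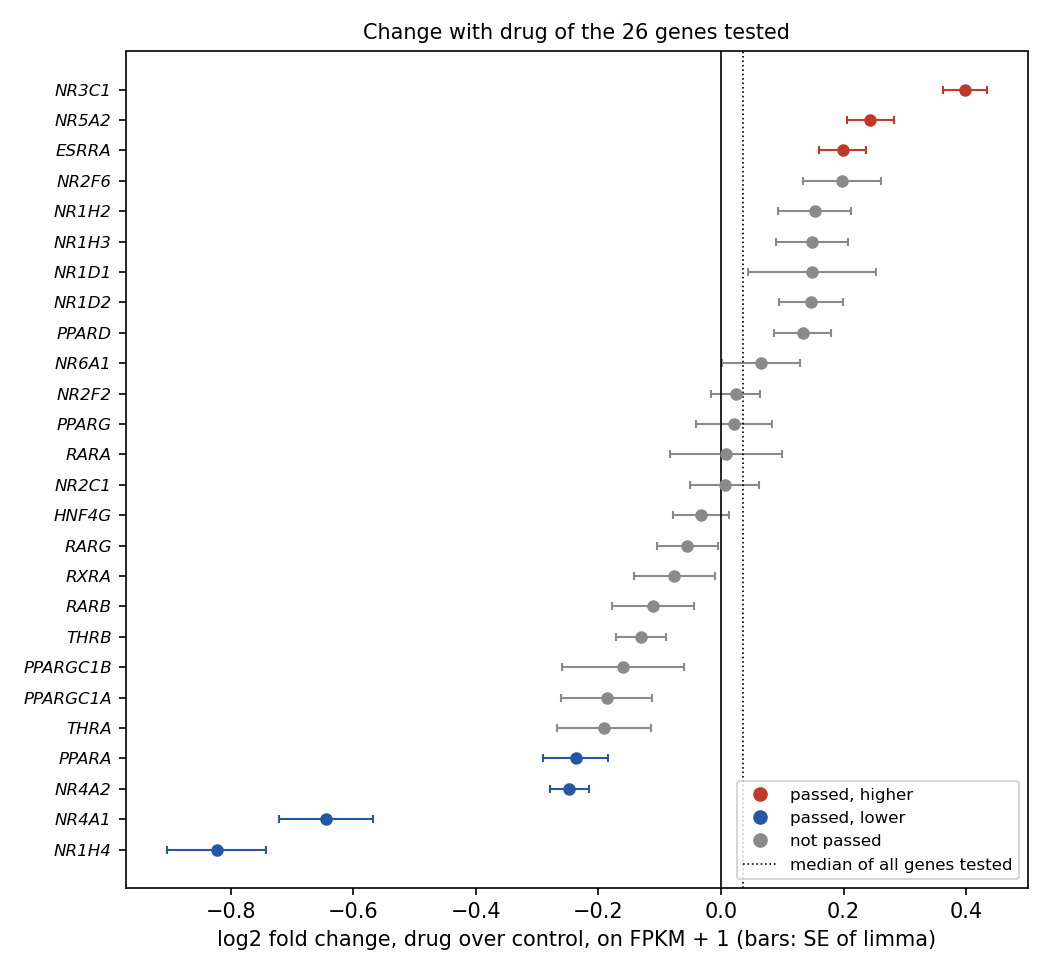
Log2 fold change of drug over control on the FPKM + 1 scale for the 26 tested genes, with the SE of limma as bars, red and blue where the gene passed and grey where it did not. The dotted line is the median of all genes tested (0.0364). NR1H4 (-0.82) and NR4A1 (-0.645) stand apart on the left and NR3C1 (0.40) on the right.

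Partners of the receptors were taken from gene lists and set against the same limma background (7.78% higher, 6.02% lower). Counts with edgeR, for this and the later lists, stand beside the edgeR background (8.37% higher, 11.0% lower). Of 17 coactivator genes tested, 2 rose and none fell. NCOA3, a p160 coactivator that binds many ligand-bound receptors, rose from 34.7 ± 0.837 to 52.0 ± 0.490 FPKM (limma adjusted p = 0.00152) and kept its call with each library left out. MED1, the Mediator subunit that contacts receptors, rose from 14.0 ± 0.0384 to 15.7 ± 0.0137 FPKM (0.0349), a call lost whichever library was left out (0.119 to 0.140), without the filter (0.0781) and with TMM-scaled FPKM (0.0686). With edgeR 4 coactivator genes were higher and 1 lower. None of 8 corepressor genes passed with limma or edgeR, while DESeq2 called SIN3A higher (adjusted p = 0.0281). Of 10 regulators and partners of PGC-1, SIRT1, a deacetylase that activates PGC-1 alpha, rose from 6.24 ± 0.0893 to 7.88 ± 0.293 FPKM (limma adjusted p = 0.0185) and PRKAA2, an AMP kinase subunit, from 4.56 ± 0.196 to 6.03 ± 0.304 FPKM (0.0226). Neither kept its call with any 1 library left out (0.0571 to 0.0918 for SIRT1 and 0.0582 to 0.0991 for PRKAA2) or without the filter (0.0727 and 0.0903).

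Chaperones of the steroid receptors were also listed. Of 10 tested, 5 rose with limma and 3 with edgeR, and none fell. HSP90AA1 rose from 523 ± 2.71 to 655 ± 32.8 FPKM, HSPA8 from 467 ± 10.3 to 562 ± 6.17 FPKM and DNAJA1 from 131 ± 3.46 to 157 ± 4.18 FPKM (limma adjusted p = 0.0122, 0.00835 and 0.0129). DNAJB1 rose from 18.02 ± 0.0385 to 20.1 ± 0.416 FPKM (0.0402, edgeR adjusted p = 0.0611). HSP90AA1 did not pass without control 1 (0.0762) or control 2 (0.0710), HSPA8 without control 1 (0.0565), DNAJA1 without control 1 (0.0680), control 2 (0.0518) or drug 1 (0.0592), and DNAJB1 with any 1 library left out (0.101 to 0.168). The list's median log2 fold change was 0.12 beside 0.0364 for all genes. All 4 lost their calls without the filter (0.0657 to 0.0953), and DNAJB1 also with TMM-scaled FPKM (0.0630).

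Target genes of the lipid and bile acid sensors followed. Of 4 tested FXR and SHP targets, KNG1, the kininogen gene, fell from 21.0 ± 0.216 to 11.5 ± 0.677 FPKM (limma adjusted p = 0.00175) and SLC51B, a bile acid exporter subunit, from 67.6 ± 2.75 to 48.6 ± 0.880 FPKM (0.00457). FGF19, the enterokine that FXR induces, was at 1.02 ± 0.0784 and 0.527 ± 0.0833 FPKM and was called lower with edgeR (adjusted p = 0.0271) but not with limma (0.0729). The other tested gene, SLC27A5, did not pass with limma or edgeR. NR0B2, which FXR also induces, was under the filter and went the other way, as given above. Among 7 LXR targets, SCD, a fatty acid desaturase gene, fell from 428 ± 23.9 to 194 ± 0.282 FPKM and SREBF1 from 6.40 ± 0.0634 to 4.21 ± 0.0374 FPKM (limma adjusted p = 0.000841 and 0.00500), and the other 5, ABCA1, MYLIP, LPCAT3, SMPDL3A and APOE, did not pass. Of 13 PPAR targets 5 rose and 4 fell, the others that passed being PDK4, CREB3L3, SLC25A20 and ACADVL (higher) and HADHA (lower). With edgeR 4 were higher and 4 lower, ACADVL being the 1 not called (0.0862). ACADVL (0.105 to 0.165) and HADHA (0.1001 to 0.163) lost their limma calls whichever library was omitted, PDK4 without control 1, control 2 or drug 1 (up to 0.0716) and SLC25A20 without control 1 (0.0507). CPT1A, which carries long-chain fatty acids towards mitochondrial oxidation, rose from 37.5 ± 1.58 to 50.1 ± 0.833 FPKM (0.00643), while FABP1 (12.3 ± 0.439 to 5.16 ± 0.332 FPKM), the lipid droplet gene PLIN2 (44.6 ± 3.41 to 23.6 ± 0.939) and ANGPTL4 (5.62 ± 0.445 to 3.45 ± 0.0479) fell (limma adjusted p = 0.00147, 0.00315 and 0.00897). ANGPTL4 lost its call without control 1 (0.0510) and without the filter (0.0528). SCD, SREBF1, PLIN2 and ANGPTL4 are also targets of other factors.

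Of 3 tested PXR and CAR targets, the drug efflux pump gene ABCB1 fell from 8.14 ± 0.436 to 5.57 ± 0.340 FPKM (limma adjusted p = 0.0122), a call lost without control 1 (0.0690), control 2 (0.0530), drug 1 (0.0510) or the filter (0.0634). The other 2, UGT1A1 and ALAS1, did not pass, and the 6 cytochrome genes of that list were under the filter. Of these, CYP2B6, a classic CAR target, went the other way, with 12 and 9 reads in the controls against 40 and 57 under drug (0.0876 ± 0.0355 and 0.330 ± 0.0910 FPKM), and DESeq2 called it higher (adjusted p = 0.00911). Among REV-ERB and ROR targets, NFIL3, a repressor gene of the clock output, fell from 32.9 ± 0.198 to 27.4 ± 0.900 FPKM (limma adjusted p = 0.0138), and the clock genes BMAL1, CLOCK and CRY1 did not pass. NFIL3 lost its call without control 1 (0.0766), control 2 (0.0692), drug 2 (0.0639) or the filter (0.0553).

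Of 7 tested glucocorticoid receptor targets 2 rose. FKBP5, a chaperone that the receptor induces and that lowers its hormone affinity, rose from 12.2 ± 0.106 to 15.5 ± 0.441 FPKM (limma adjusted p = 0.00897), and DUSP1, a MAP kinase phosphatase gene, from 72.9 ± 2.06 to 82.2 ± 1.94 FPKM (0.0344). FKBP5 did not pass without control 1 (0.0596) or control 2 (0.0558), nor did DUSP1 with any 1 library left out (0.0795 to 0.140), without the filter (0.112), with TMM-scaled FPKM (0.0510) and with edgeR (0.0550). With edgeR 1 gene of this list was higher and 2 lower. TSC22D3, which encodes GILZ, was at 7.08 ± 0.256 and 5.87 ± 0.410 FPKM (limma adjusted p = 0.0608, edgeR adjusted p = 0.0163). The members of the list thus went both ways under edgeR.

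Of 8 tested genes of retinoic acid response and retinoid handling, 2 rose and 3 fell, with RDH11 the third to fall, a call lost with any 1 library left out (0.0632 to 0.0750). RDH10, which oxidises retinol, rose from 17.9 ± 1.04 to 28.1 ± 0.0248 FPKM (limma adjusted p = 0.00382) and DHRS3, which reduces retinal, from 7.46 ± 0.123 to 9.38 ± 0.222 FPKM (0.0141). TGM2, a transglutaminase gene, fell from 39.0 ± 1.31 to 24.1 ± 0.811 FPKM (0.00201) and ALDH1A1, which makes retinoic acid, from 459 ± 0.835 to 357 ± 9.88 FPKM (0.00475). DHRS3 lost its call with any 1 library left out (0.0571 to 0.0759) and without the filter (0.0552). Of 3 thyroid hormone receptor targets tested, the glucose-6-phosphatase gene G6PC1 rose from 12.1 ± 0.405 to 17.2 ± 1.03 FPKM (0.00916), a call lost without control 1 (0.0594), control 2 (0.0506) or the filter (0.0526). The malic enzyme gene ME1 of that list, at 29.4 ± 0.874 and 26.7 ± 0.280 FPKM, did not pass with limma (0.0608) and was called lower with edgeR (0.0145) and DESeq2 (0.00688). CYP24A1, the vitamin D catabolic enzyme gene and the single vitamin D receptor target tested, fell from 43.7 ± 2.35 to 29.5 ± 0.729 FPKM (0.00476).

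None of 12 tested PGC-1 and ERR alpha targets passed with limma, and 1 was higher and 2 lower with edgeR. Their median log2 fold change was -0.0044, beside 0.0364 for all genes. Of 4 estrogen receptor targets TFF1 rose from 2.66 ± 0.0342 to 4.14 ± 0.00898 FPKM (limma adjusted p = 0.00800), lost without control 1 (0.0544) or control 2 (0.0518) and with edgeR (0.0941). Among 2 other receptor genes tested, HNF4A rose from 22.4 ± 0.186 to 25.5 ± 0.0976 FPKM (0.0210), a call lost whichever library was left out (0.0848 to 0.104) and without the filter (0.0551), and NR4A3 fell as given above.

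**Figure D4:**
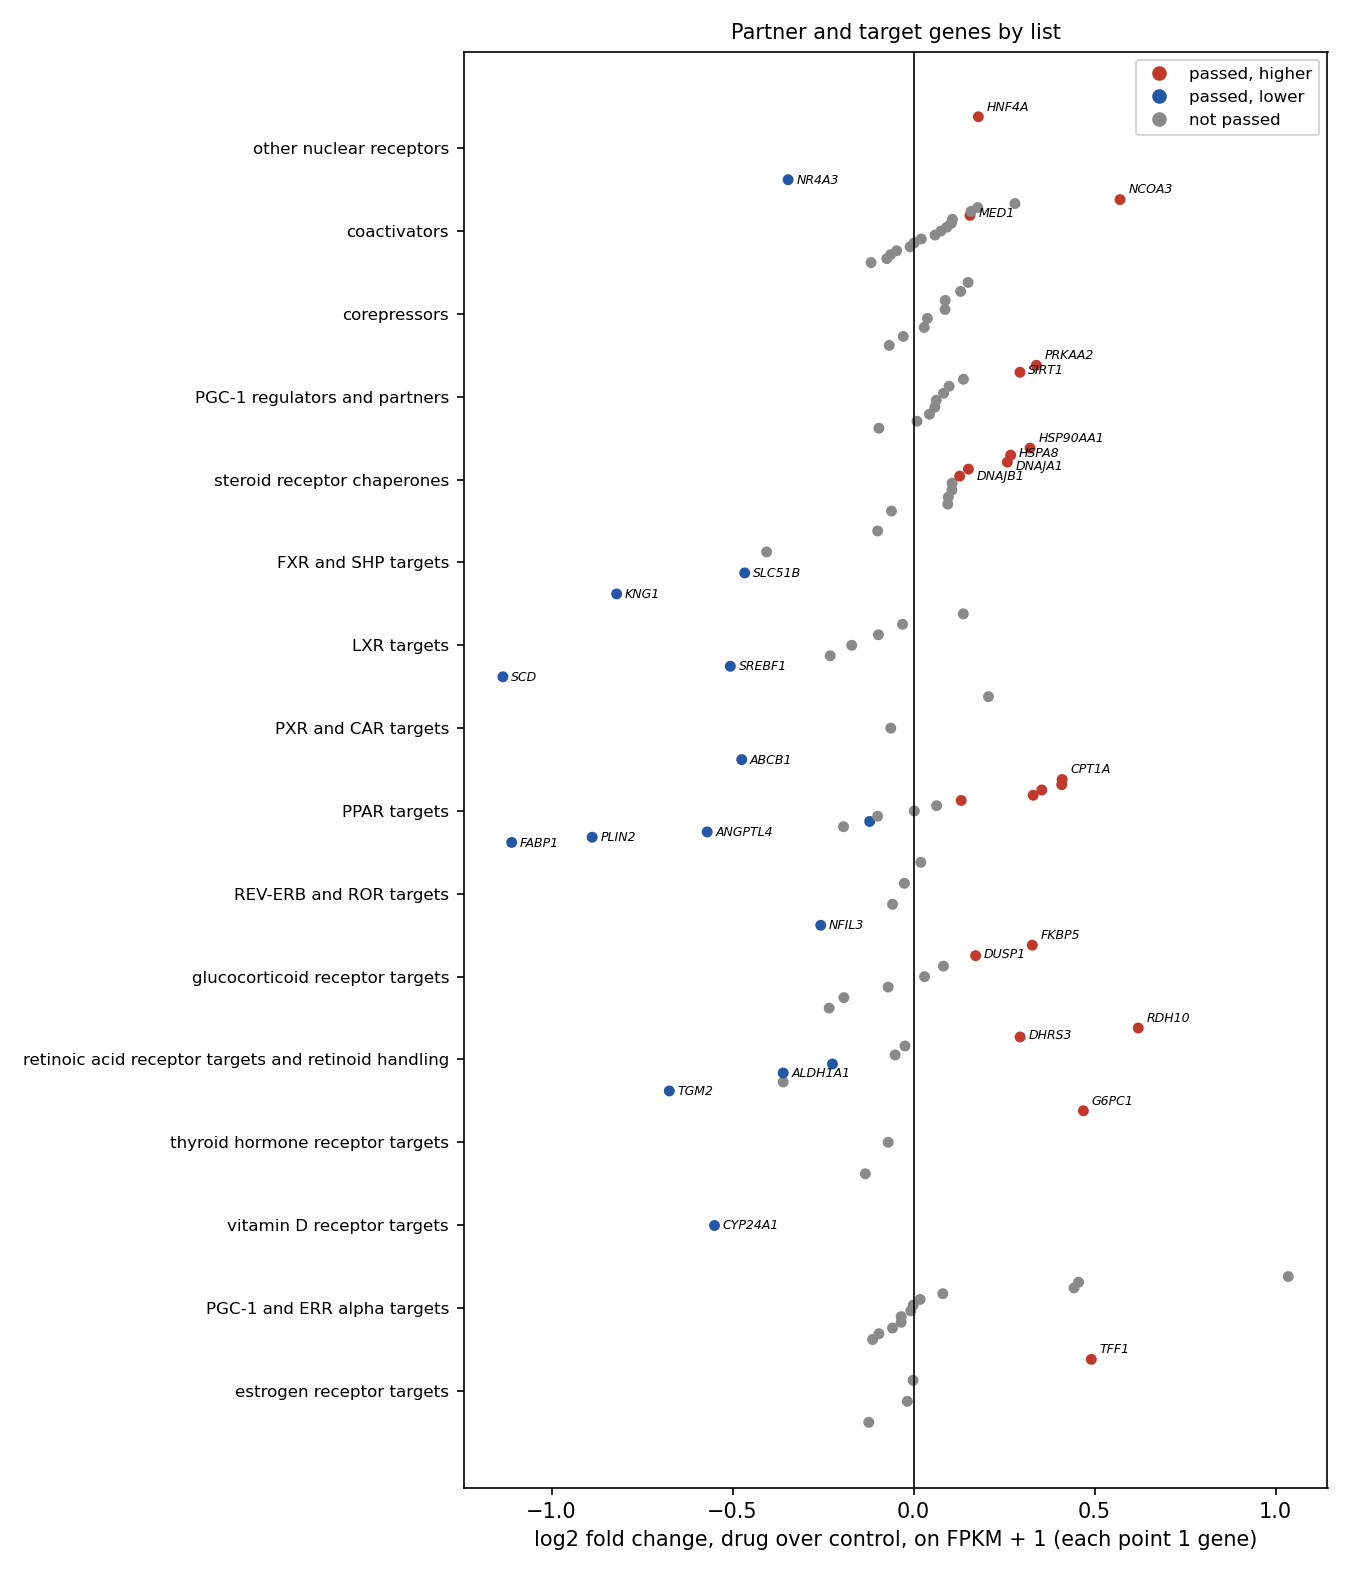
Log2 fold change of drug over control on the FPKM + 1 scale for tested partner and target genes, by list, with red and blue for genes that passed and grey for those that did not. Chaperones lie mostly right of 0, LXR and FXR targets mostly left, and PPAR and retinoid genes on both sides.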

How the data were processed

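RNA of 2 control and 2 drug libraries of PLC8024 cells was sequenced. Per the labels' protocols, extraction used trizol and library preparation the TruSeq stranded mRNA kit guide. The submitters' processing notes name bcl2fastq and build hg38, and what aligned, counted and tested the reads, and on which annotation, is not given in the sources used here. Each library has 1 deposited FPKM column, a unit read from the values since the header names none. The group columns are the authors' mean normalized read counts, a signal in which reads are divided by library size factors. Per the file headers, the log2 fold change, the p-value and its adjusted form are a comparison made by the authors. No per-sample column was left unused.

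Whole reads were recovered by solving FPKM against the group means, and 100% of values came within 0.1 read of a whole number. The two-sided test was limma 3.58.1 with a trend, run on log2(FPKM + 1) for genes averaging 1 FPKM or more in either group, at a Benjamini-Hochberg adjusted p under 0.05 over all of them. Alternatives were pseudocounts of 0.1 and 0.01, no filter, FPKM scaled by TMM factors, edgeR 4.0.16 (quasi-likelihood) and DESeq2 1.42.0 on recovered reads, the replicate number as a block, and each library left out, where the lone sample of a group is assumed to vary like the other group. Fits were tested on simulated data. DESeq2 on recovered reads gave log2 fold changes within 0.0001 of the deposited ones. Replicate libraries correlated across genes at 0.993 (control) and 0.992 (drug), and between groups at 0.986 to 0.987; genes are not independent replicates.

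The 35 genes and 16 lists of partners and targets were chosen with earlier results of these data known. Every one of the 35 is accounted for; of each list, up to 4 genes past the threshold and averaging 2 FPKM or more in a group are named, by absolute log2 fold change. FGF19, SIN3A, TSC22D3, CYP2B6, ME1, SDHB, NDUFS1, ATP5F1B and the list genes named without values lie outside that rule. They were chosen after their values were seen. A listed target gene is not reported here. Merged exon lengths and overlaps are from GENCODE 29 and upstream windows from RefSeq. Scripts ran in R 4.3.3 and Python 3.11.15 (pandas 2.3.3, numpy 2.4.6), with plots from matplotlib 3.10.9.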

Additional observations from a re-analysis of the deposited data

How the results depend on the processing

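Pseudocounts of 0.1 and 0.01 and TMM-scaled FPKM left the 3 higher and 4 lower receptor genes at 3 and 4. Without the filter 1 was higher and 1 lower (170 and 214 of all genes), and with edgeR or DESeq2 on recovered reads 7 were lower (1233 and 1222 of all genes lower). All genes called higher numbered 549 with TMM-scaled FPKM. With the replicate number as a block, 474 of all genes and 3 of the 26 were higher, and 451 of all genes and 3 of the 26 were lower: ESRRA (adjusted p = 0.0710) and PPARA (0.0858) lost and NR2F6 (0.0494) gained a call. Deviations of same-numbered libraries correlated at 0.0278 over 11227 genes, and the labels tie nothing to the numbers. Whether the libraries were made in pairs is therefore not known, and the main fit treats them as unpaired. With 1 library left out, 115 to 221 of all genes were higher and 188 to 274 lower, and of the 26, 1 to 1 higher and 0 to 3 lower. Genes without a call changed sign: NR2F2 at -0.0035 (TMM), -0.016 (edgeR) and -0.0073 (DESeq2), NR2C1 at -0.020, -0.035 and -0.028, PPARG at -0.000797, -0.012 and -0.0041 and RARA at -0.011, -0.027 and -0.017 in that order. With a library left out, log2 fold changes of reversed sign were -0.022 (NR2F2), -0.074 (RARA) and -0.0021 (PPARG) without control 2, -0.040 (NR2C1) without control 1, 0.0085 (HNF4G), -0.045 (NR2C1) and -0.052 (RARA) without drug 1, and -0.0086 (NR6A1) and -0.029 (PPARG) without drug 2. Over the libraries left out, the other ends of the ranges were 0.070 (NR2F2), -0.073 (HNF4G), 0.057 (NR2C1), 0.139 (NR6A1), 0.071 (PPARG) and 0.089 (RARA). The cause was not tested. The 2 libraries per group limit all tests, and the filter kept 9 genes out of the main test. Groups of 2 are too small to test for an outlying sample.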

Other observations

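Among the listed mitochondrial targets of PGC-1 and ERR alpha, SDHB, a subunit gene of succinate dehydrogenase, differed between replicates. It was at 0.172 and 0.106 FPKM in the control libraries and at 3.45 and 0.222 FPKM in the drug libraries, on 12, 10, 340 and 21 reads. NDUFS1, a complex I subunit gene, was at 2.21 and 2.82 FPKM (control) and 2.86 and 4.87 FPKM (drug). SDHB was at a very low level beside other respiratory genes of the list such as ATP5F1B (389 ± 2.73 FPKM in control). Neither gene passed with limma (adjusted p = 0.290 and 0.218), and SDHB was called higher with edgeR (0.0463), with 340 of its reads in drug 1.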
